A study of Mus musculus with 5 samples.

Results

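The enzymes that use arginine in macrophages were followed as 8 genes: Nos2, Arg1, Arg2, Ass1, Asl, Gch1, Odc1 and Oat. They were taken by symbol, and all 8 were found among the 13339 genes listed in the expression table and among the 9795 genes whose mean of the 5 libraries reached 1 FPKM. FPKM, a count of fragments scaled by transcript length and library size, is a level per length, so levels of different genes can be set side by side. The cells were bone marrow-derived macrophages of 8-week-old C57BL/6 mice, grown for 5 days with the growth factor M-CSF. Titles mark every library as wild type. Lipopolysaccharide (LPS), a bacterial surface molecule read by the receptor TLR4, was given at 100 ng/ml, and the libraries stand for 0, 4, 8, 12 and 24 h. Each time was 1 library, how many animals went into it is not said, and no culture without LPS at the later times was among the samples, so hours in LPS and hours in culture cannot be told apart. No p-value could be computed, and each difference is one between a pair of libraries.

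Arginine is the substrate for which nitric oxide synthase and arginase compete. Nos2 turns it into nitric oxide, a diffusible antimicrobial radical, and citrulline, with tetrahydrobiopterin (BH4) as a cofactor, and Gch1 catalyses the first and limiting step of BH4 synthesis. Ass1 and Asl rebuild arginine from citrulline and aspartate. The arginases, cytosolic Arg1 and mitochondrial Arg2, split arginine into urea and ornithine, which Odc1 decarboxylates to the polyamine putrescine and Oat passes on towards proline and glutamate. In mouse macrophages Nos2 is a standard marker of the response to LPS and Arg1 of alternative activation by interleukin 4.

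The labelled cell type was checked first. All 7 macrophage markers were listed, with a summed level of 2052 to 3054 FPKM in the 5 libraries. The sum covers opposite courses. Cd68, its largest part at 0 h, had 1896 FPKM then and 824 at 24 h, and Csf1r 636 and 446. Adgre1 had 340 and 967 FPKM at these times, and Fcgr1 73.1 and 461. One of the 7, Lyz2, stood at only 19.1 to 37.5 FPKM, and whether reads were divided between it and the near-identical Lyz1 was not tested. One protocol field of the labels speaks of dendritic cells. The 7 dendritic cell markers summed to 3.73 FPKM at 0 h and at most 17.6 at 8 h, of which Ccr7 made up 14.8, and the defining Zbtb46 and Flt3 did not exceed 0.25 and 0.53. Neutrophil markers (7 of 8 listed) summed to 330 FPKM at 0 h, then 317, 253, 181 and 60.6 at 4, 8, 12 and 24 h. Within that list Ly6g went the other way, from 0.12 to 3.71 FPKM, and Mpo was listed at 0 at 24 h. Stromal and endothelial markers (8 of 8) summed to 9.39 FPKM at 0 h and to between 24.8 and 44.7 afterwards, mostly through Kdr. Lymphoid, erythroid and mast cell markers stayed at or below 4.23 FPKM in sum. The part of these markers in the results below was not tested. In bulk RNA, more cells with a transcript and more transcript per cell cannot be told apart.

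Nos2 (gene 18126; chromosome 11, 78920787 to 78960226, GRCm38) encodes inducible nitric oxide synthase. It stood at 0.32 FPKM at 0 h, then 291, 927, 1155 and 761 at 4, 8, 12 and 24 h. It was near the bottom of the 0 h library, at rank 10993 of 13339, and among the top of every later one, at ranks 246, 57, 42 and 65 in turn. The 0 h value corresponds to about 25 reads at the depth of 18.8 to 19.2 M reads (megareads) that the steps between low FPKM values point to. The fold at 4 h over 0 h was 910, with a 95% counting interval of 627 to 1431. Intervals of this kind are exact for the estimated reads of the libraries compared and cover counting error only, not variation between cultures.

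Nos2 was higher at 12 h than at 0 h by 3609-fold (2488 to 5676). On the log2(FPKM + 1) scale, which understates the fold of low genes, its difference from 0 h was 7.79 at 4 h and then 9.46, 9.77 and 9.17. At 8, 12 and 24 h this was the difference of rank 2 among the 9795 genes over the filter. From 12 h to 24 h the level was 1.52-fold lower (1.50 to 1.53), a log2 difference of -0.60 that did not reach 2-fold. The other NO synthases were close to 0: Nos1, the neuronal form, did not exceed 0.04 FPKM, and Nos3, the endothelial form, did not exceed 0.03 and was listed at 0 at 4 h.

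**Figure D1:**
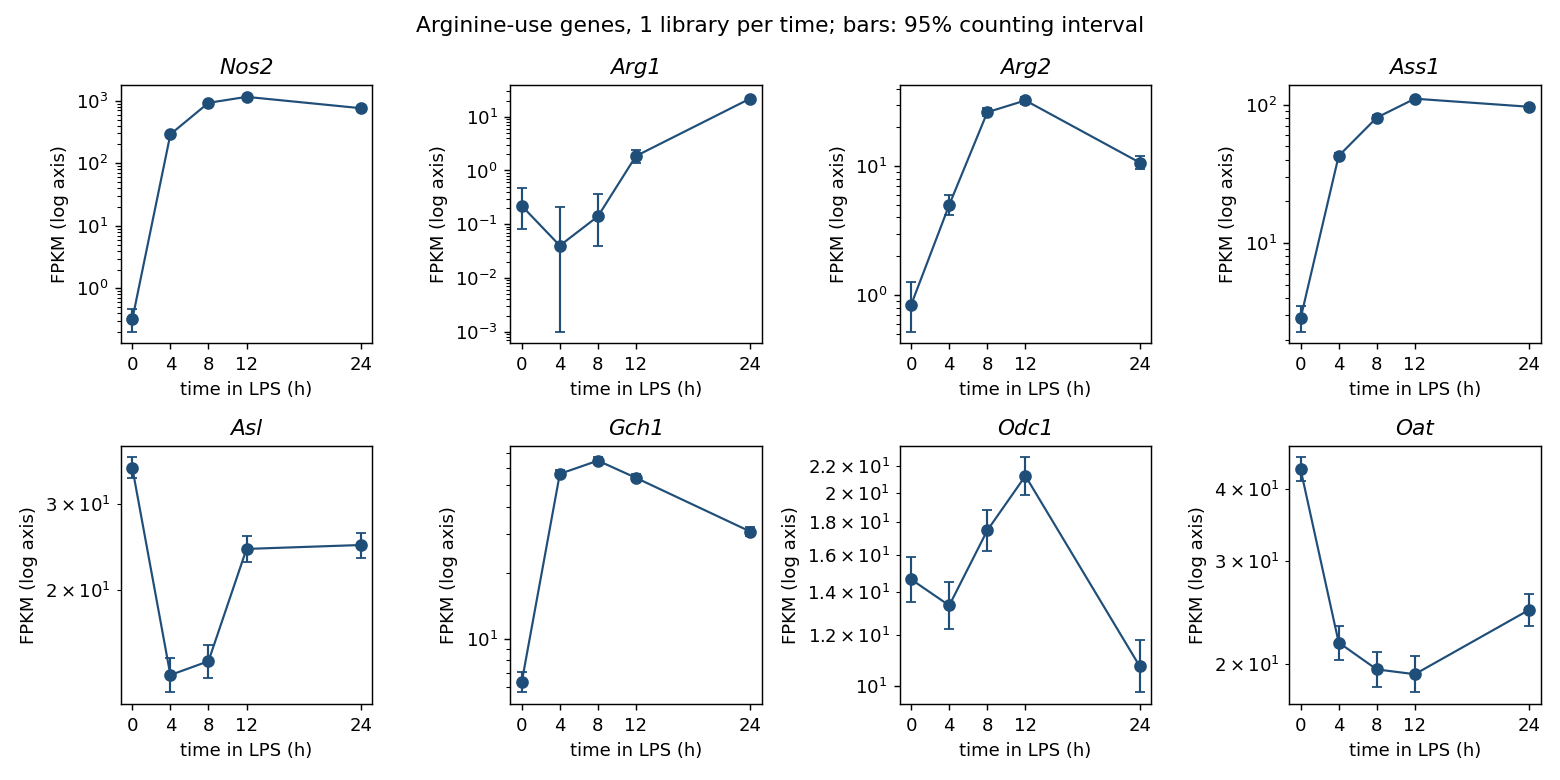
FPKM (log axis, with its own range in each panel) against hours of LPS for the 8 genes, 1 library per time, with 95% counting intervals from the estimated depth. Nos2, Ass1 and Arg2 climb to their highest point at 12 h, Gch1 at 8 h and Arg1 only at 24 h, while Asl and Oat are highest at 0 h.

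Gch1 (gene 14528; chromosome 14, 47153895 to 47189413) had 6.35 FPKM at 0 h, then 56.4, 64.8, 54.1 and 30.8 at 4, 8, 12 and 24 h. The 0 h library was the lowest and the 8 h library the highest. Most of the difference was present at 4 h, when Gch1 was at 87.0% of its highest level and Nos2 at 25.2% of its own. At 4 h the fold over 0 h was 8.88 (7.91 to 9.96) and at 24 h 4.85 (4.30 to 5.47). The log2 difference of Gch1 between 12 h and 24 h was -0.79, and -1.01 relative to the median gene.

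Of 6 genes on the list of BH4 synthesis and recycling, 4 were in the table and over the filter. Against 0 h, the 4 h library had 0 of them higher and 4 lower by 2-fold or more, or 0 and 2 with libraries centred on the median gene. For all genes these shares were 12.2% higher and 38.1% lower, or 21.5% and 13.4% centred. At 24 h 0 were higher and 3 were lower on both scales, against 11.3% and 14.5% of all genes (12.6% and 12.3% centred). Qdpr, the dihydropteridine reductase that recycles BH4, had 65.1 FPKM at 0 h, then 21.1, 13.8, 11.5 and 11.6 at 4, 8, 12 and 24 h. Spr, sepiapterin reductase, the last step of synthesis, had 30.1, 6.28, 3.67, 6.64 and 12.8 FPKM in the same order, and Pts, the step after Gch1, 16.6, 6.73, 8.82, 8.98 and 8.15. Pcbd2, a dehydratase of the recycling route, went from 29.3 FPKM at 0 h to 9.09 at 24 h. The median log2 difference of the 4 genes was -1.69 at 4 h and -1.38 at 24 h, beside -0.70 and -0.11 for all genes.

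Ass1 (gene 11898; chromosome 2, 31470270 to 31520670), argininosuccinate synthase, stood at 2.85 FPKM at 0 h, then 42.7, 80.8, 111 and 96.8 at 4, 8, 12 and 24 h. Every LPS library was above the 0 h library, and the 12 h and 24 h libraries were the highest. The log2 difference from 0 h was 3.51 at 4 h, a fold with an interval of 12.1 to 18.8, and the fold was 38.9 at 12 h (31.7 to 48.7).

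Asl (gene 109900; chromosome 5, 130011258 to 130024381), argininosuccinate lyase, which takes the product of Ass1 to arginine, had 35.5 FPKM at 0 h, then 13.4, 14.3, 24.3 and 24.7 at 4, 8, 12 and 24 h. Here the 0 h library was the highest and the 4 h and 8 h libraries the lowest. The 4 h level was 2.64-fold below 0 h (2.41 to 2.91), a log2 difference of -1.34. The median of all genes was itself lower at 4 h by -0.70, and with libraries centred on it the difference of Asl was -0.64 at 4 h and -0.77 at 8 h, less than 2-fold. At 24 h the log2 difference of Asl from 0 h was -0.51.

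Within a library any scaling common to all genes cancels in a ratio. Ass1 was at 0.080 of the level of Asl at 0 h, and at 3.18, 5.63, 4.56 and 3.91 times that level at the later times in order. The enzyme of the pair with the lower transcript level was therefore Ass1 at 0 h and Asl in the 4 LPS libraries. The ratio of Nos2 to Ass1 was 0.112 at 0 h, then 6.82, 11.5, 10.4 and 7.86 at 4, 8, 12 and 24 h. Nos2 to Gch1 was 0.050 at 0 h and grew at each later time, from 5.17 at 4 h to 14.3, 21.4 and 24.7.

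**Figure D2:**
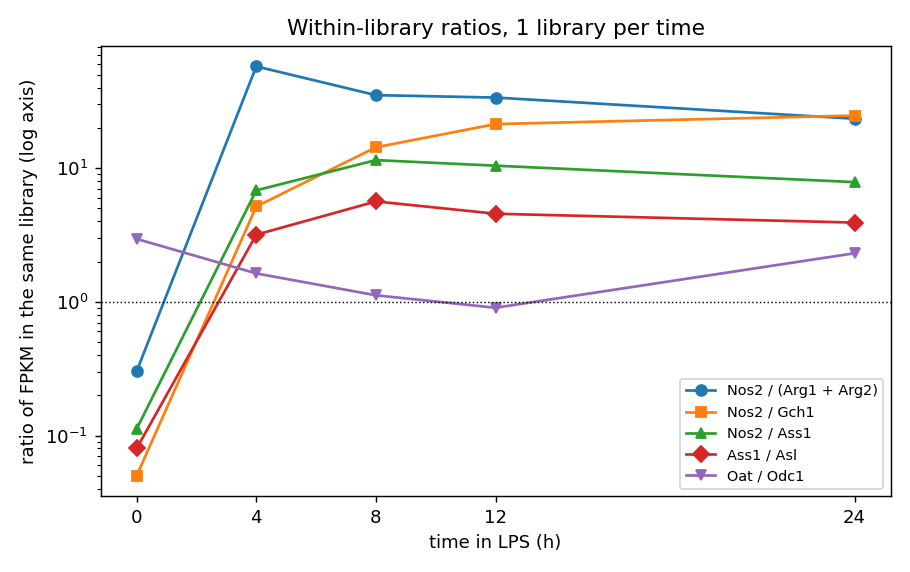
Ratios of FPKM of the genes named in the legend within the same library (log axis) against hours of LPS, 1 library per time, with a dotted line at a ratio of 1. Nos2 over the sum of the arginases is highest at 4 h (57.7) and lower at 24 h (23.4), while Nos2 over Gch1 is highest at 24 h (24.7).

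Bases upstream of the start site are shown for Ass1 and Gch1, as genes with higher levels under LPS, and for Oat, whose level was lower. They are the 250 bases before the RefSeq transcript start in build GRCm38.p6. The table had such an entry for 4 of the 8 genes, these and Odc1. The regions are chr2:31470020-31470269 (plus strand) for Ass1, chr14:47189414-47189663 (minus strand) for Gch1 and chr7:132576399-132576648 (minus strand) for Oat. Capitals mark every match, on either strand, to 10 motifs that were searched: the kappaB consensus and the ISRE core by name, TTCNNNGAA (GAS), TTNNGNAA (C/EBP), TGANTCA (AP-1), TGACGTCA (CRE), ACGTG (hypoxia element core), CACGTG (E-box), TATAAA and GGGCGG (GC box).
Ass1: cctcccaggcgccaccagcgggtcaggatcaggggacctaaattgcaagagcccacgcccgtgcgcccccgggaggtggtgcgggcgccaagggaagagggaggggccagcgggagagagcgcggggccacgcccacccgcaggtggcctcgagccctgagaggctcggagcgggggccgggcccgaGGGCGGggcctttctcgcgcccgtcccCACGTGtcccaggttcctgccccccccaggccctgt
Gch1: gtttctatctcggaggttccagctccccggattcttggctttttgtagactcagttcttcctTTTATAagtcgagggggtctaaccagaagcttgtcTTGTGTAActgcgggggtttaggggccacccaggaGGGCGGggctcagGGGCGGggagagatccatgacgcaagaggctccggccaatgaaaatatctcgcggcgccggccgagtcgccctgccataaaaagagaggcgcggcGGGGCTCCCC
Oat: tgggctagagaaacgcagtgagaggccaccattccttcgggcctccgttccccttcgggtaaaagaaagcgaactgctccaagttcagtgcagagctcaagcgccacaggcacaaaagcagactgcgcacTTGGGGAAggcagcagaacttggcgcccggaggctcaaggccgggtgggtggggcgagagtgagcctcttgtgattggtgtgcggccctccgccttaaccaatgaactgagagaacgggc
Ass1 held an E-box at -36 to -31, counted from the start site, which is also what matches the hypoxia element core on both strands, and 1 GC box. Gch1 held a kappaB consensus match at -10 to -1, read on both strands, a C/EBP match at -153 to -146, a TATAAA match on the minus strand and 2 GC boxes. Oat held 1 C/EBP match, at -120 to -113. Among 13587 promoters of listed genes over the same 250 bases, 9.0% held the kappaB consensus, 8.0% the E-box, 20.8% the hypoxia element core, 6.9% TATAAA, 29.2% the C/EBP letters and 55.2% a GC box. The matches describe letters in these windows and no binding was measured.

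Arg1 (gene 11846; chromosome 10, 24915207 to 24927470), cytosolic arginase, stood at 0.22 FPKM at 0 h, then 0.04, 0.14, 1.86 and 21.8 at 4, 8, 12 and 24 h. The first 3 values correspond to about 6, 1 and 4 reads, and their order is within counting error: the ratio of 4 h to 0 h was 0.182 with an interval of 0.004 to 1.39. The 12 h library, at about 50 reads, was 13.3-fold above 8 h (4.69 to 48.7), and the 24 h library was 11.7-fold above 12 h (8.82 to 16.0). This last step was that of rank 3 among 9795 genes on the log2 scale. At 24 h the fold over 0 h was 99.1 (45.6 to 273). Arg1 was still far from the level of Nos2 then, at rank 2945 of the library.

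Arg2 (gene 11847; chromosome 12, 79130788 to 79156301), the mitochondrial arginase, had 0.84 FPKM at 0 h, then 5.01, 26.3, 32.4 and 10.7 at 4, 8, 12 and 24 h. It was lowest at 0 h and highest at 12 h, and its level at 24 h was 33.0% of the highest. The fold over 0 h was 5.96 at 4 h and 38.6 at 12 h (25.7 to 62.8). From 12 h to 24 h Arg2 was 3.03-fold lower (2.64 to 3.48), a log2 difference of -1.52. With libraries centred on the median gene this was -1.74.

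The summed level of both arginases was 1.06 FPKM at 0 h, then 5.05, 26.4, 34.3 and 32.5 at 4, 8, 12 and 24 h. It was thus close at 12 h and 24 h, while its makeup was not. Arg1 made up 0.792% of the sum at 4 h, then 0.531%, 5.43% and 67.1% of it. The 95% binomial interval (Clopper-Pearson, on the estimated reads) was 4.18% to 7.30% at 12 h and 64.6% to 70.9% at 24 h. At 0 h the share of 20.8% rests on about 28 reads and its interval is 8.30% to 41.0%. Nos2 stood at 0.302 times the arginase sum at 0 h, then 57.7, 35.1, 33.7 and 23.4 times at 4, 8, 12 and 24 h.

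**Figure D3:**
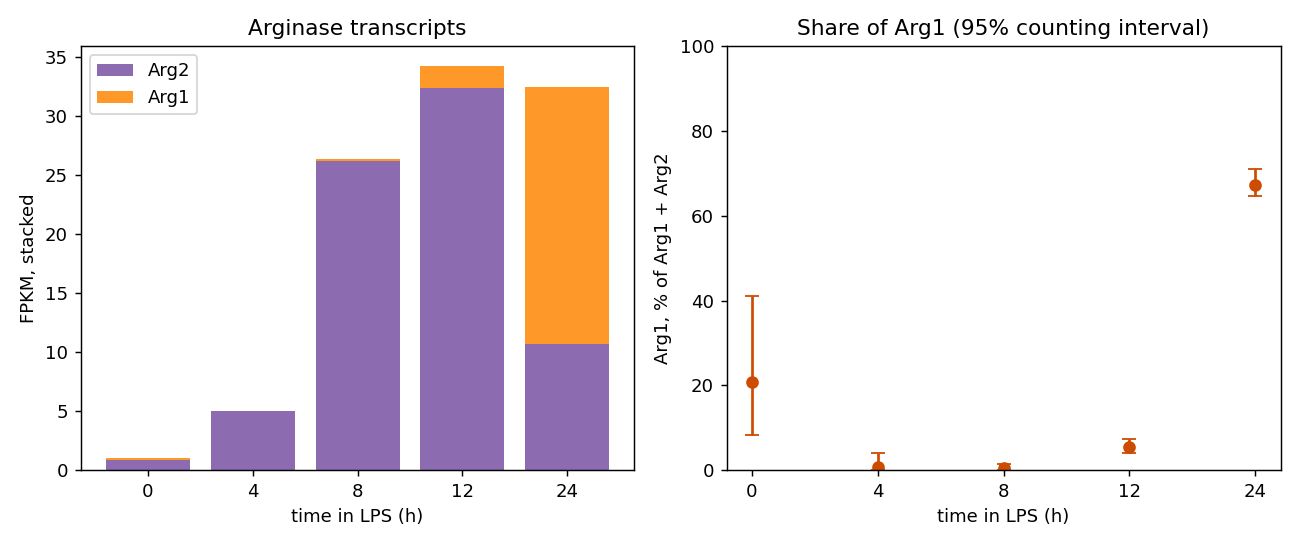
Left, FPKM of Arg2 and Arg1 stacked, for each time in LPS (1 library each). Right, Arg1 as a percent of Arg1 + Arg2, with the 95% binomial interval of the estimated reads. The stacks at 12 h and 24 h are of similar height (34.3 and 32.5 FPKM), with Arg1 at 5.43% of the first and 67.1% of the second.

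Odc1 (gene 18263; chromosome 12, 17544808 to 17551502), ornithine decarboxylase, had 14.6 FPKM at 0 h, then 13.3, 17.5, 21.2 and 10.7 at 4, 8, 12 and 24 h. No LPS library was 2-fold away from 0 h. The largest step was from 12 h to 24 h, where Odc1 was 1.98-fold lower (1.76 to 2.22), a log2 difference of -0.92, or -1.14 with libraries centred. At 4 h the sign of its difference from 0 h depended on the scaling, -0.13 as deposited and 0.57 centred.

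Oat (gene 18242; chromosome 7, 132557475 to 132576398), ornithine aminotransferase, had 43.3 FPKM at 0 h, then 21.7, 19.5, 19.2 and 24.8 at 4, 8, 12 and 24 h. The 0 h library was the highest and the LPS libraries lay between 44.3% and 57.2% of it. The log2 difference from 0 h was -1.11 at 8 h and -1.13 at 12 h, and centring the libraries brought it to -0.62 and -0.78, within 2-fold. The ratio of Oat to Odc1 was 2.96 at 0 h, then 1.63, 1.12, 0.903 and 2.31 at 4, 8, 12 and 24 h.

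Counted over the 8 genes with a threshold of 2-fold, 4 were higher and 1 was lower in the 4 h library than before LPS: Nos2, Arg2, Ass1 and Gch1 against Asl. For all genes the shares at this time were 12.2% higher and 38.1% lower. With libraries centred on the median gene the counts were 4 and 0, and the background 21.5% higher and 13.4% lower. At 8 h 4 were higher and 2 lower (12.0% and 28.9% of all genes), or 4 and 0 when centred (18.0% and 14.9%). At 12 h 5 were higher, now with Arg1, and 1, Oat, was lower (12.3% and 21.5%), or 5 and 0 when centred (16.5% and 12.9%). At 24 h the same 5 were higher and 0 lower, where 11.3% and 14.5% of all genes were. These counts stayed 5 and 0 when centred (12.6% and 12.3%). The median log2 difference of the 8 from 0 h was 0.79, 1.70, 2.07 and 2.39 in time order, while that of all genes was -0.70, -0.49, -0.36 and -0.11. These comparisons share the 0 h library.

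Between LPS libraries fewer of the 8 were apart. From 4 h to 8 h Nos2 (log2 difference 1.67) and Arg2 (2.18) were at least 2-fold higher and 0 genes lower, with 5.23% and 3.88% of all genes called (3.46% and 5.36% when centred, with the same counts). From 8 h to 12 h Arg1 alone of the 8 was higher and 0 were lower (2.58% and 0.939%, or 1.61% and 1.38% when centred, with the same counts). From 12 h to 24 h Arg1 was higher and Arg2 lower (3.42% and 3.5%), and with libraries centred Gch1 and Odc1 were lower too (1.51% and 5.67%). At 24 h against 4 h Arg1, Nos2 and Ass1 were higher and 0 lower (25.0% and 8.19%). With libraries centred only Arg1 of these was higher and Gch1 was lower (9.65% and 15.3%). The ratio of Arg1 at 24 h to 4 h was 545, with an interval of 106 to 23478 because the 4 h value is about 1 read.

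**Figure D4:**
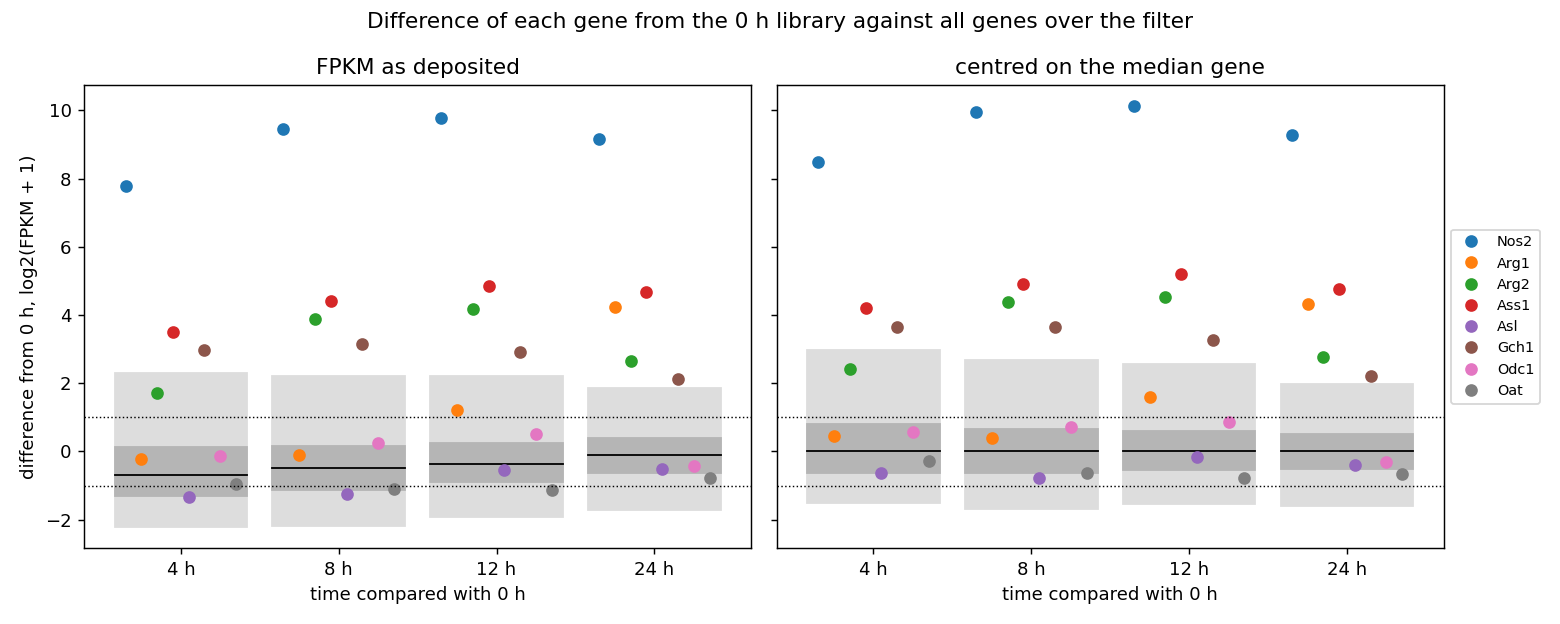
Difference of each gene from the 0 h library on the log2(FPKM + 1) scale (points) at 4, 8, 12 and 24 h, as deposited (left) and centred on the median gene (right). Dark and light boxes span the middle 50% and 90% of the genes over the filter, the line is their median and dotted lines mark 2-fold. Nos2, Ass1 and Gch1 are above the light box at every time, and Asl, Odc1 and Oat are inside it.

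Among other genes of arginine supply, Slc7a2, the cationic amino acid transporter CAT2, stood at 0.91 FPKM at 0 h, then 67.3, 154, 211 and 53.4 at 4, 8, 12 and 24 h. It had its highest level at 12 h, 232-fold over 0 h, like Nos2, Arg2 and Ass1, and a log2 difference of -1.96 from 12 h to 24 h. Slc7a1, the related transporter CAT1, had 1.26, 2.18, 1.57, 2.7 and 3.09 FPKM in time order, 2.45-fold over 0 h at 24 h. Its log2 difference from 0 h was 0.49 at 4 h and 0.86 at 24 h, or 1.19 and 0.96 centred. Slc7a8, a transporter of neutral amino acids, had 13.5 FPKM at 0 h, then 49.6 and 107 at 4 and 24 h, and Slc7a7, the arginine exporter subunit, lay between 11.5 at 12 h and 18.99 at 24 h. Slc25a15, the mitochondrial ornithine carrier, had 3.35, 0.52 and 1.13 FPKM at 0, 4 and 24 h. Pqlc2, a lysosomal exporter of cationic amino acids, was lowest at 4 h, with 14.0, 1.40, 5.92, 9.02 and 14.7 FPKM in time order. Of 13 genes on the list of transport, 12 were in the table and 9 over the filter. Of these, 24 h against 0 h called 2 as higher and 1 as lower (2 and 0 centred). At 4 h 2 were higher and 4 lower, and 3 and 1 with libraries centred. The 2 that were higher as deposited were Slc7a2 and Slc7a8 at both times. For all genes the shares at 4 h were 12.2% higher and 38.1% lower, or 21.5% and 13.4% centred. At 24 h these shares were 11.3% and 14.5%, or 12.6% and 12.3% centred.

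Partners of NO synthase and genes of NO handling numbered 10 over the filter. At 4 h 0 were higher and 8 lower (0 and 3 centred), beside 12.2% and 38.1% of all genes (21.5% and 13.4% centred). At 24 h 0 were higher and 3 lower (0 and 2 centred), beside 11.3% and 14.5% of all genes (12.6% and 12.3% centred). Nosip, which encodes a protein named for its interaction with NO synthase, had 19.3 FPKM at 0 h, then 3.52 and 25.0 at 4 and 24 h. Nostrin, a trafficking factor of the endothelial enzyme, had 11.6 FPKM at 0 h, then 0.67 and 2.47 at 8 and 24 h. Ddah2, of the family that degrades methylated arginine inhibitors, had 5.47 at 0 h and 1.32 at 24 h. Por, the reductase of microsomal cytochrome P450 enzymes, was low early, with 166 FPKM at 0 h, then 41.3 and 254 at 4 and 24 h.

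Downstream of ornithine, the polyamine list had 15 genes over the filter. The 4 h library had 0 higher and 6 lower by the 2-fold threshold (0 and 3 centred). For all genes the shares were 12.2% and 38.1%, or 21.5% and 13.4% centred. At 24 h 1 was higher and 5 lower (1 and 4 centred), beside 11.3% and 14.5% of all genes (12.6% and 12.3% centred). The median log2 difference at 24 h was -0.82, beside -0.11 for all genes. The gene that was higher was Smox, spermine oxidase, with 21.4 FPKM at 0 h, then 22.6, 26.8, 72.4 and 77.3 at 4, 8, 12 and 24 h. Sat1, the acetyltransferase that starts polyamine export and breakdown, had 474, 348, 209, 142 and 129 FPKM. Srm, spermidine synthase, had 3.44 FPKM at 4 h and 5.37 at 24 h, with log2 differences from 0 h of -1.85 and -1.33, and Paox, the peroxisomal polyamine oxidase, 26.0 FPKM at 0 h, then 2.90 and 6.49. Among regulators of Odc1, the antizyme gene Oaz1 had 445 FPKM at 0 h and between 215 and 246 later, and the antizyme inhibitor gene Azin1 31.0 at 0 h and 53.5 at 24 h.

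Of 8 proline and glutamate genes over the filter, the 4 h library had 0 higher and 6 lower by 2-fold (0 and 5 centred). For all genes the shares were 12.2% and 38.1%, or 21.5% and 13.4% centred. At 24 h 0 were higher and 4 lower (0 and 2 centred), beside 11.3% and 14.5% of all genes (12.6% and 12.3% centred). Glul, glutamine synthetase, had 79.8 FPKM at 0 h, then 12.3, 4.26, 6.87 and 19.3 at 4, 8, 12 and 24 h. Pycrl, a pyrroline-5-carboxylate reductase of proline synthesis, had 11.1, 0.64, 2.01, 3.10 and 4.71. A list of the urea cycle, creatine and other genes around arginine had 7 genes over the filter, not all of which use arginine itself. At 4 h 1 was higher and 3 lower, beside 12.2% and 38.1% of all genes. With libraries centred the counts were 1 and 0, beside 21.5% and 13.4%. At 24 h 0 were higher and 4, Gamt, Ckb, Padi2 and Padi4, were lower, beside 11.3% and 14.5% of all genes. With libraries centred 0 were higher and 3 lower, beside 12.6% and 12.3%. Padi2, a peptidylarginine deiminase, had 13.6 FPKM at 0 h and 1.03 at 24 h. Gamt, the second enzyme of creatine synthesis, had 15.6 and 2.79, while Gatm, the first, had 13.8 and 24.5. Rars, arginyl-tRNA synthetase, had 36.2 FPKM at 0 h, then 85.1 and 32.9 at 4 and 24 h.

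**Figure D5:**
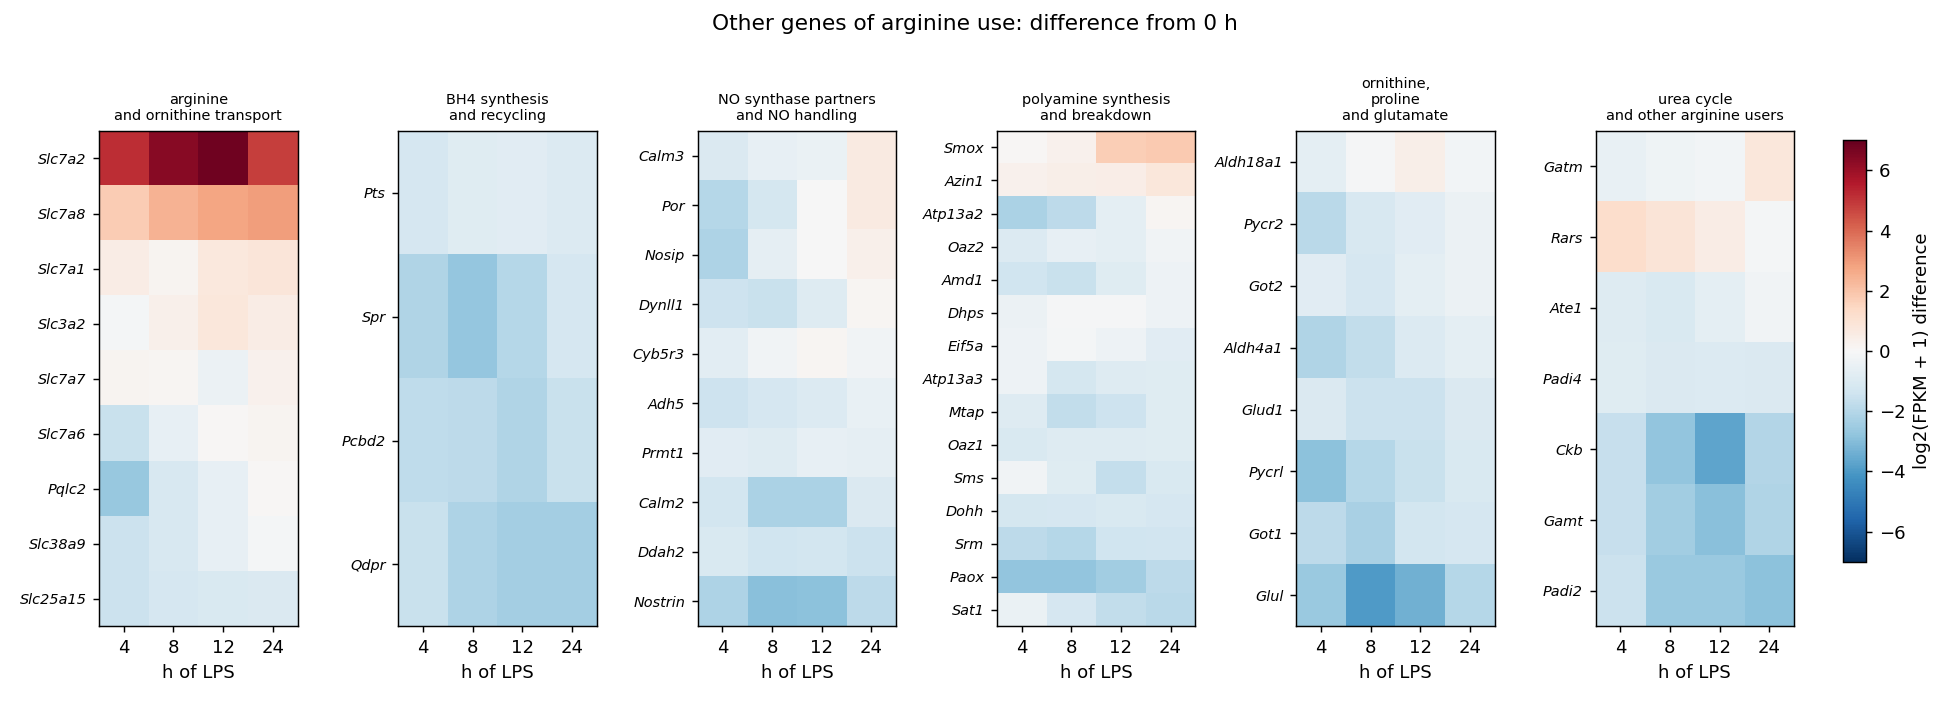
Difference from the 0 h library on the log2(FPKM + 1) scale (color) at 4, 8, 12 and 24 h for the genes over the filter on 6 lists around arginine, the 8 genes left out, sorted by the 24 h value. Slc7a2 is the darkest red row, with 6.80 at 12 h, and Qdpr, Glul, Ckb and Padi2 are among the blue rows.

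Genes with the most similar course were found by the root mean square distance between log2(FPKM + 1) values centred on each gene's mean over the 5 libraries. For Nos2 the nearest were the chemokine gene Ccl5 (distance 0.39), Acod1, the itaconate enzyme (0.84), the acute-phase gene Saa3 (0.95), complement factor Cfb (1.02) and Slfn4 (1.07). None of these 5 shared its highest point at 12 h, while some genes at slightly larger distances, 1.09 to 1.13, did. Ccl5, Saa3, Cfb and Slfn4 were highest at 24 h (12779, 40998, 1148 and 567 FPKM) and Acod1 at 4 h (3121 FPKM). For Arg1 the nearest were A530064D06Rik (0.63), LOC100038947 (0.67), the transporter gene Slc6a12 (0.70), the peroxiredoxin gene Prdx6 (0.70) and Wnk2 (0.71). Prdx6 had 30.4 FPKM at 0 h, then 15.1, 16.2, 36.1 and 130 at 4, 8, 12 and 24 h. Nearest to Arg2 were Scimp (0.24), Ntng2 (0.30) and Prdx5 (0.33), to Ass1 Trim30b (0.19), Gm4951 (0.20) and the interferon regulator Irf7 (0.20), and to Gch1 the exonuclease gene Trex1 (0.07), Srgn (0.10) and Lacc1 (0.12). For Asl they were Sfi1 (0.03), Abcd3 (0.05) and Trmt2b (0.05), for Odc1 Pi4ka (0.06), Cxcl5 (0.08) and Thoc6 (0.09), and for Oat Prrc1 (0.03), Srek1ip1 (0.03) and Kti12 (0.04). Within the 8 genes the closest pair was Asl and Oat (0.34), followed by Odc1 and Oat (0.61). Nos2 and Arg1 were 3.47 apart, less than Nos2 was from Odc1 (3.64), Asl (4.02) or Oat (4.08). The names depend on the pseudocount: with 5 in place of 1, 1 of the 5 named for Nos2 and 3 of the 5 named for Arg1 were kept. Of the 3 named for each of the others, 2 were kept for Odc1, 1 each for Arg2 and Gch1, and 0 for Ass1, Asl and Oat.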

How the data were processed

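RNA from mouse macrophages at 5 times of LPS was sequenced on the BGISEQ-500, 1 library per time. The authors deposited a table of FPKM values with 2 decimals, per the file headers. Per the submitters' processing notes Bowtie2, RSEM and GRCm38 were used. Roles, versions and annotation: not given in the sources used here. Such values share out reads by estimate and lower a gene when others take more of the library. In 20 rows symbols turned into dates were restored by gene identifier. Differences were taken on log2(FPKM + 1) between genes with a mean of at least 1 FPKM, and 2-fold was the threshold. Depth was estimated from 114 to 128 low values per library of genes with 1 transcript of 400 to 2500 nt: with lengths reduced by 40 nt, 57.5% to 69.5% were whole reads within 0.04 reads or the rounding, against 28.7% to 30.0% by chance for a fixed step, in a search from 10 to 40 M reads. Both step and reduction were chosen for the match. Reads were not recovered for nearly all genes and each time has 1 library, so no count test was run. Estimated reads use the longest coding transcript in GENCODE M21 and gave the exact 95% intervals. The genes named were the 8, those on 6 pathway lists, and the nearest by course (5 for Nos2 and Arg1, 3 otherwise). Some genes of these lists are not reported here, and the counts and medians of the lists do not cover them. The genes and lists were chosen with earlier results of these data known. The alternatives were pseudocounts of 5 and 0.1, other filters, centring, a common sum and removal of the length trend. The 2-fold calling was run on simulated counts with counting error only. That run leaves the depth estimate, the intervals and variation between cultures untested. Gene positions are from RefSeq for GRCm38.p6. Python 3.11.15, pandas 2.3.3, numpy 2.4.6 and scipy 1.17.1 were used.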

Additional observations from a re-analysis of the deposited data

How the results depend on the processing

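Of 64 differences of the 8 genes, 30 were at least 2-fold, 21 of these stayed so under all 7 alternatives for which the gene passed the filter, and 0 of the 30 changed sign. The 9 others were Arg2 at 4 h, Arg1 at 12 h and between 8 h and 12 h, Asl at 4 h and 8 h, Oat at 8 h and 12 h, and Nos2 and Ass1 at 24 h against 4 h. Members at least 2-fold lower than at 0 h numbered 1 at 4 h, 2 at 8 h and 1 at 12 h, and 0 at each of these times with libraries centred on the median gene or the length trend removed. A pseudocount of 0.1 gave 2 at 4 h, the added gene being Arg1 (-1.19), which rests on about 1 read against 6. A pseudocount of 5 gave 1 at 8 h and 0 at 12 h. At 24 h against 4 h, centring and length removal each gave 1 higher in place of 3 and 1 lower in place of 0, and rescaling libraries to a common sum gave 1 lower. From 8 h to 12 h the 1 higher gene, Arg1, became 0 with a pseudocount of 5 (0.42 on the log2 scale) and with a filter of 5 FPKM, which Arg1 does not pass, as from 12 h to 24 h (0 in place of 1). From 12 h to 24 h, centring and length removal gave 3 lower in place of 1. With 1 FPKM added to each gene, the share of Arg1 in the arginases at 0, 4, 8 and 12 h was 39.9%, 14.8%, 4.02% and 7.89%, in place of 20.8%, 0.792%, 0.531% and 5.43%.

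Over all alternatives, genes of the whole table higher than at 0 h numbered 915 to 2108 (1197 as reported) at 4 h and 715 to 1298 (1106 as reported) at 24 h, and lower 1124 to 4309 (3729 as reported) and 841 to 1676 (1424 as reported). For 8 h these ranges were 883 to 1765 (1180 as reported) higher and 1251 to 3340 (2831 as reported) lower, and for 12 h 849 to 1618 (1205 as reported) and 986 to 2546 (2107 as reported). At 24 h against 4 h they were 839 to 3190 (2448 as reported) higher and 560 to 1503 (802 as reported) lower, from 4 h to 8 h 199 to 1019 (512 as reported) and 194 to 600 (380 as reported), from 8 h to 12 h 75 to 594 (253 as reported) and 51 to 140 (92 as reported), and from 12 h to 24 h 97 to 634 (335 as reported) and 198 to 555 (343 as reported). Of the genes called at 4 h 24.3% were higher as deposited and 61.6% centred, and at 24 h 43.7% and 50.6%. At 8 h these shares were 29.4% and 54.7%, at 12 h 36.4% and 56.1%, at 24 h against 4 h 75.3% and 38.6%, from 4 h to 8 h 57.4% and 39.2%, from 8 h to 12 h 73.3% and 53.9%, and from 12 h to 24 h 49.4% and 21.1%.

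No paired analysis was possible because each time has 1 library, and there were no replicates to leave out. Depth limits Arg1 most: its levels at 0, 4 and 8 h rest on about 6, 1 and 4 reads.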
